A study of Mus musculus with 28 samples.

Results

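The genes described here are 10 transcription factors of naive pluripotency: Nanog, Klf2, Klf4, Klf5, Esrrb, Tbx3, Tfcp2l1, Prdm14, Nr5a2 and Zfp42. They were taken by symbol from a deposited table of 17342 genes, all 10 were present, and all 10 passed the filter on low values that kept 17338 genes. Levels were followed across 7 RNA-seq libraries of mouse embryonic stem cells (ESCs), which are cultured cells derived from the early embryo. All cells were male V6.5 ESCs, a 129 and C57BL/6 mixed line, grown in serum with LIF. The groups were Tet2 wildtype (Tet2-WT, n = 3 independent ESC cultures), Tet2 mutant (Tet2-Mut, n = 2 clones) and Tet2 knockout (Tet2-KO, n = 2 clones). The labels do not say what the mutation is. In the published work on these cells Tet2-Mut denotes a catalytically inactive Tet2, so Tet2-Mut keeps a protein that Tet2-KO lacks. Every culture had been kept on feeder fibroblasts, was pre-plated to remove them and spent the night before harvest on gelatin. With 2 clones in each Tet2-altered group, a difference between genotypes cannot be told apart from a difference between the clones picked. Bisulfite sequencing (3 samples) and CUT&Tag (18 samples) are not used here.

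Naive pluripotency is the state of the cells of the blastocyst before implantation, which ESCs keep in culture when LIF signals through Stat3. LIF raises Klf4, Tfcp2l1 and Tbx3, inhibition of Gsk3 raises Esrrb by relieving repression through Tcf7l1, and these factors activate one another around the core factors Pou5f1, Sox2 and Nanog. When ESCs leave this state, the naive factors fall and formative genes such as Fgf5, Otx2, Pou3f1 and Dnmt3b rise. Tet2 encodes a dioxygenase that oxidizes 5-methylcytosine, and the series asks about functions of Tet2 beyond this activity, which makes the comparison of Tet2-KO with Tet2-Mut part of the design.

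The values are counts divided by a size factor per library ("normalized counts"), and each library held between 41.9 M and 58.5 M reads in genes, where M stands for mega. Tet2 itself checked the Tet2-KO labels only. Its normalized count was 4624 and 5206 in the Tet2-KO clones, 9992 and 13181 in the Tet2-Mut clones and 10244 to 12074 in Tet2-WT. Tet2 RNA cannot check which libraries are Tet2-Mut and which Tet2-WT, since these groups overlapped. Levels are compared between groups within a gene, never between genes, since transcript lengths were not used. The test was limma on log2(normalized count + 1) over all genes, with Benjamini-Hochberg adjustment, and fold changes are on this scale. The pluripotency markers Pou5f1 (52319 to 72697 normalized counts), Sox2 (26550 to 33439) and Sall4 (16392 to 20075) were abundant in every library. Among markers of other cells, the trophectoderm factor Cdx2 was at 11.7 to 19.3 in Tet2-WT and Tet2-Mut and at 103 and 68.2 in Tet2-KO. Cdx2 does not stand for its list: of 19 trophectoderm markers, 10 were above 0 and 9 below in Tet2-KO against Tet2-WT. The endoderm factor Sox17 was at 4.13 to 37.8 throughout, and the endoderm factor Gata4 at 114 to 423. In bulk RNA, fewer cells with a factor and less RNA per cell cannot be told apart.

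Tbx3 fell in both Tet2-altered genotypes, and it was the only factor of the 10 that passed the test against Tet2-WT in both. Tbx3 is a T-box repressor that sustains self-renewal and can stand in for LIF when it is overexpressed. Its normalized counts were 5245, 5231 and 5645 in Tet2-WT, 2498 and 2265 in Tet2-Mut, and 2523 and 3401 in Tet2-KO. All 4 Tet2-altered libraries lay below all 3 Tet2-WT libraries. The mean of 5374 ± 235 in Tet2-WT (SD, n = 3) stood against 2382 ± 165 in Tet2-Mut and 2962 ± 621 in Tet2-KO (n = 2 each). In Tet2-Mut this was a log2 fold change of -1.18 (SE 0.12, 95% confidence interval -1.44 to -0.90, adjusted p = 0.0058), or a 2.26-fold lower level, the gene with rank 12 by p among 17338. In Tet2-KO the log2 fold change was -0.87 (SE 0.12, interval -1.14 to -0.60, adjusted p = 0.00847), a 1.83-fold lower level at rank 89. Both values use the same Tet2-WT libraries.

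The Tbx3 difference kept its direction when any 1 library was left out, but its call rested on the Tet2-WT cultures. The log2 fold change ranged from -1.09 to -0.66 in Tet2-KO and from -1.25 to -1.10 in Tet2-Mut. The adjusted p in Tet2-KO was 0.0529, 0.05 and 0.0578 without Tet2-WT replicate 1, 2 or 3, and leaving out Tet2-WT replicate 1 or 2 gave 0.0652 and 0.0624 in Tet2-Mut. edgeR on the recovered reads and DESeq2 called Tbx3 lower in both comparisons. Tbx3 lies on chromosome 5 (119670534 to 119684724, GRCm38.p6), and its first 975 bases overlap the noncoding gene Tbx3os1. Tbx3os1 was at 27.1 to 55.5 normalized counts in Tet2-WT, 6.75 and 10.3 in Tet2-Mut and 12.4 in both Tet2-KO clones, with log2 fold changes of -2.06 (adjusted p = 0.0537) in Tet2-Mut and -1.55 (adjusted p = 0.0952) in Tet2-KO. The strand setting of the counting was not given in the sources used here, so reads in the overlap cannot be told apart, but Tbx3os1 had far fewer counts than Tbx3 in each library.

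**Figure D1:**
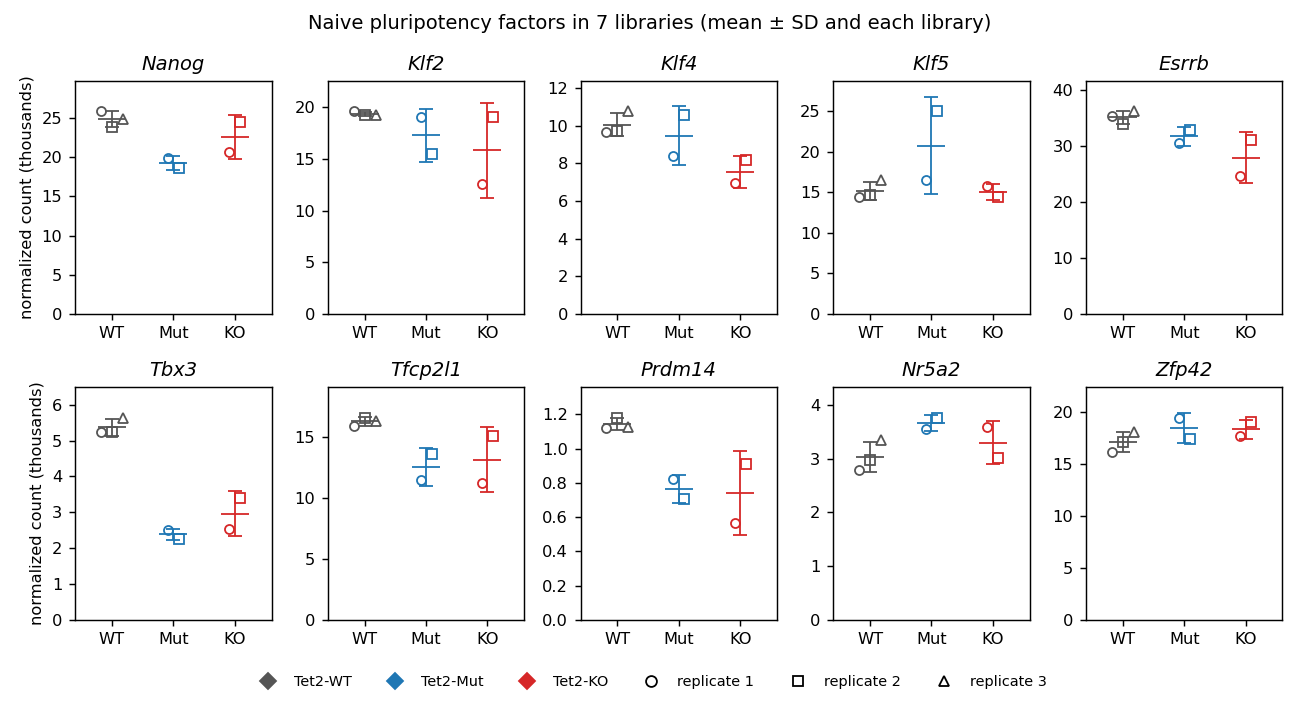
Normalized counts divided by 1000 (vertical axes, from 0) of the 10 naive factors in the 3 Tet2-WT, 2 Tet2-Mut and 2 Tet2-KO libraries. Open symbols are libraries and bars are mean ± SD. Tbx3 was at 5231 to 5645 in Tet2-WT and at 2265 to 3401 in the 4 Tet2-altered libraries, while Zfp42 stayed between 16110 and 19440.

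Nanog, the homeodomain factor that holds ESCs in self-renewal, fell in Tet2-Mut. Its normalized counts were 25897, 23922 and 24977 in Tet2-WT, 19927 and 18677 in Tet2-Mut, and 20672 and 24589 in Tet2-KO. Both Tet2-Mut clones lay below every other library, whereas Tet2-KO replicate 2 lay inside the Tet2-WT range. In Tet2-Mut the log2 fold change was -0.37 (SE 0.08, interval -0.55 to -0.19, adjusted p = 0.0457). In Tet2-KO it was -0.14 (interval -0.33 to 0.04, adjusted p = 0.331). The call in Tet2-Mut stood near the threshold: the adjusted p became 0.211, 0.166 and 0.116 when Tet2-WT replicate 1, 2 or 3 was left out, 0.139 when Tet2-Mut replicate 2 was, and 0.055 by edgeR. The direct difference of Tet2-KO against Tet2-Mut was 0.22 (interval 0.02 to 0.43, adjusted p = 0.197), with both Tet2-KO clones above both Tet2-Mut clones.

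The promoter of Nanog carries a composite of an Oct-type and a Sox-type site that is known to bind Pou5f1 and Sox2. It is shown beside that of Zfp42 because both windows hold the same Oct-type letters. Each line gives the 250 bases before the RefSeq start on the gene's strand (GRCm38.p6), with matches to the searched letters in capitals. The Nanog line is chr6:122707239-122707488 (plus strand) and the Zfp42 line is chr8:43307010-43307259 (minus strand).
Nanog: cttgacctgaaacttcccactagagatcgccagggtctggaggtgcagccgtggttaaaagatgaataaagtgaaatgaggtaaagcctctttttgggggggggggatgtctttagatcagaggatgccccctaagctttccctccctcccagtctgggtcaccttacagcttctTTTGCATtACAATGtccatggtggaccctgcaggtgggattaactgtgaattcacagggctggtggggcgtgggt
Zfp42: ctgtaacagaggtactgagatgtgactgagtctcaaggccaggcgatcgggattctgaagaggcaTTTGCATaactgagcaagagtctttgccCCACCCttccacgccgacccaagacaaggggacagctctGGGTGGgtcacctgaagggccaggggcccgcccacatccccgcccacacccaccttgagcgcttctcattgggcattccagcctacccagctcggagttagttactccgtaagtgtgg

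In Nanog the letters TTTGCAT begin 75 bases and ACAATG 67 bases before the start used here. Before a second RefSeq start of Nanog, at 122707565, they begin at 151 and 143, and GGGTGG begins at 50. In Zfp42, TTTGCAT begins 185 bases before the start, and the KLF-type letters CCACCC begin at 157 and, on the opposite strand as GGGTGG, at 118. The search covered 5 motifs on both strands of the 300-base windows (250 bases before to 50 after a start) of the 7 factors that had one, with 10 windows in all. Among all 32851 RefSeq windows, TTTGCAT occurs in 4.63%, ACAATG in 12.6%, CCACCC in 31.5%, the Esrrb-type AAGGTCA in 4.72% and the Stat-type TTCNNNGAA in 8.3%. CCACCC was present in at least 1 window of Nanog, Zfp42, Klf2, Esrrb and Nr5a2. AAGGTCA was in no window of the 7 factors. The windows also differed in CpG content: that of Klf4 held 40 CpG sites and that of Klf2 held 32, while the windows of Nanog held 4 each against a median of 7 over all windows. These matches describe the letters and not binding. Tbx3, Prdm14 and Klf5 are named only.

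Prdm14 and Tfcp2l1 were lower in both genotypes without passing the test. Prdm14, a zinc finger protein that represses Fgf signalling and de novo DNA methylation in ESCs, had normalized counts of 1123, 1182 and 1125 in Tet2-WT, 821 and 707 in Tet2-Mut, and 566 and 913 in Tet2-KO. No Tet2-altered library reached the lowest Tet2-WT library. The log2 fold change was -0.67 in Tet2-KO (SE 0.18, interval -1.08 to -0.26, adjusted p = 0.064) and -0.58 in Tet2-Mut (SE 0.18, interval -0.995 to -0.17, adjusted p = 0.114). DESeq2 called both, with adjusted p of 0.0113 and 0.0258. Tfcp2l1, a grainyhead-family factor activated by LIF and Stat3, was at 15867, 16572 and 16307 in Tet2-WT, 11432 and 13616 in Tet2-Mut, and 11228 and 15023 in Tet2-KO. Again each Tet2-altered library lay below the Tet2-WT range. The log2 fold change was -0.38 in Tet2-Mut (interval -0.65 to -0.11, adjusted p = 0.115) and -0.32 in Tet2-KO (interval -0.59 to -0.05, adjusted p = 0.145).

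Klf4 and Esrrb had their lowest values in Tet2-KO. Klf4 is a zinc finger factor that LIF induces, and Esrrb is an orphan nuclear receptor. Klf4 was at 9657, 9733 and 10767 in Tet2-WT, 8368 and 10597 in Tet2-Mut, and 6962 and 8158 in Tet2-KO. Both Tet2-KO clones lay below every other library, while 1 Tet2-Mut clone lay below the Tet2-WT range and the other inside it. The log2 fold change in Tet2-KO was -0.41 (SE 0.11, interval -0.66 to -0.16, adjusted p = 0.0611). Esrrb was at 35353, 33914 and 36242 in Tet2-WT, 30550 and 32990 in Tet2-Mut, and 24677 and 31136 in Tet2-KO. The groups did not overlap in either comparison with Tet2-WT, but the log2 fold changes of -0.34 in Tet2-KO (interval -0.56 to -0.13, adjusted p = 0.0655) and -0.15 in Tet2-Mut (interval -0.36 to 0.07, adjusted p = 0.41) missed the threshold. DESeq2 called both genes lower in Tet2-KO (adjusted p = 0.0133 for Klf4 and 0.026 for Esrrb). These 2 genes had the most similar pair of profiles among the 10, with a root mean square distance of 0.09 on the log2 scale between their centred values over 7 libraries.

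**Figure D2:**
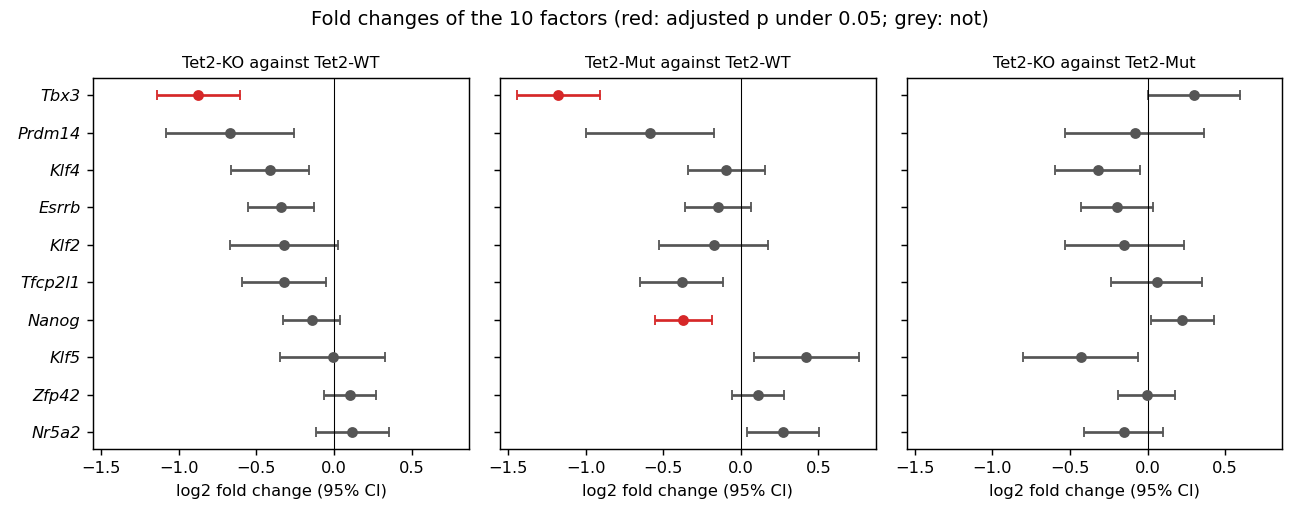
Log2 fold changes (horizontal axes) of the 10 factors in the 3 comparisons, with 95% confidence intervals from limma. Red marks an adjusted p under 0.05: Tbx3 in Tet2-KO against Tet2-WT, Tbx3 and Nanog in Tet2-Mut against Tet2-WT, and 0 factors in Tet2-KO against Tet2-Mut.

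Klf2 and Zfp42 both lie on chromosome 8, whose genes were shifted as a whole in these clones. The median of 861 tested chromosome 8 genes, relative to the Tet2-WT mean, was 0.29 and 0.27 on the log2 scale in the Tet2-Mut clones and -0.28 and -0.24 in the Tet2-KO clones. The medians of 18 other chromosomes (all but 14 and Y) lay between -0.05 and 0.09 in every library. The 7 tested genes of chromosome Y had medians of 1.40 and -5.07 in Tet2-Mut replicates 1 and 2 and of -2.98 and 0.86 in Tet2-KO replicates 1 and 2, so the clones of each genotype also differed there. Zfp42, a zinc finger gene also known as Rex1 and used as a naive marker, was at 16110, 17066 and 18031 in Tet2-WT, 19440 and 17414 in Tet2-Mut, and 17690 and 18977 in Tet2-KO. The Tet2-altered libraries overlapped the Tet2-WT range, with log2 fold changes of 0.10 in Tet2-KO (interval -0.07 to 0.27, adjusted p = 0.456) and 0.11 in Tet2-Mut (interval -0.06 to 0.28, adjusted p = 0.446). In Tet2-KO this was above 85.5% of chromosome 8 genes, and in Tet2-Mut above 28.7%. With each gene centred on the median of its chromosome, Zfp42 was higher in Tet2-KO by 0.36 against Tet2-WT (adjusted p = 0.0154) and by 0.52 against Tet2-Mut (adjusted p = 0.0097), and its difference in Tet2-Mut turned to -0.15 (adjusted p = 0.203). The direction of Zfp42 and its call thus depend on whether its level or its level relative to chromosome 8 is taken. A pseudogene copy, Zfp42-ps1, was counted separately at 506 to 766 normalized counts, so reads shared with it are uncertain.

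Klf2, a zinc finger factor downstream of Mek5 and Erk5 that acts alongside Klf4 and Klf5, differed between the clones of each genotype. Its normalized counts were 19609, 19263 and 19293 in Tet2-WT, 19076 and 15474 in Tet2-Mut, and 12560 and 19091 in Tet2-KO. Within each Tet2-altered group, 1 clone lay just below the Tet2-WT range and the other was far lower. The log2 fold change in Tet2-KO was -0.32 (SE 0.15, interval -0.67 to 0.02, adjusted p = 0.25), and it became -0.63 (adjusted p = 0.0151) with Tet2-KO replicate 2 left out and -0.02 with replicate 1 left out. In Tet2-KO this was near the chromosome 8 median of -0.26, whereas in Tet2-Mut Klf2 was at -0.17 (adjusted p = 0.565) and the chromosome at 0.27. Relative to that median in each library, Klf2 stood at -0.34 in Tet2-KO replicate 1 and at 0.22 in Tet2-KO replicate 2, and at -0.31 and -0.59 in the Tet2-Mut clones.

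Klf5 was high in a single library. This zinc finger factor, which also acts in trophectoderm, was at 14381, 14715 and 16479 in Tet2-WT, 16503 and 25011 in Tet2-Mut, and 15801 and 14390 in Tet2-KO. Tet2-Mut replicate 2 stood apart at 0.72 above the Tet2-WT mean on the log2 scale, and Tet2-Mut replicate 1 was at the top of the Tet2-WT range. Klf5 lies on chromosome 14, and the median of the 569 tested genes of that chromosome was 0.49 in Tet2-Mut replicate 2 and between -0.05 and 0.02 in the other 6 libraries. The part of this shift in the Klf5 value was not tested beyond centring: relative to the chromosome, Klf5 was at 0.17 and 0.23 in the Tet2-Mut clones, and the log2 fold change became 0.20 (adjusted p = 0.16). In Tet2-Mut its log2 fold change was 0.42 (SE 0.15, interval 0.08 to 0.76, adjusted p = 0.155), and 0.12 without Tet2-Mut replicate 2. In Tet2-KO it was -0.01 (interval -0.35 to 0.33, adjusted p = 0.984). DESeq2 called Klf5 higher in Tet2-Mut (adjusted p = 0.0392).

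**Figure D3:**
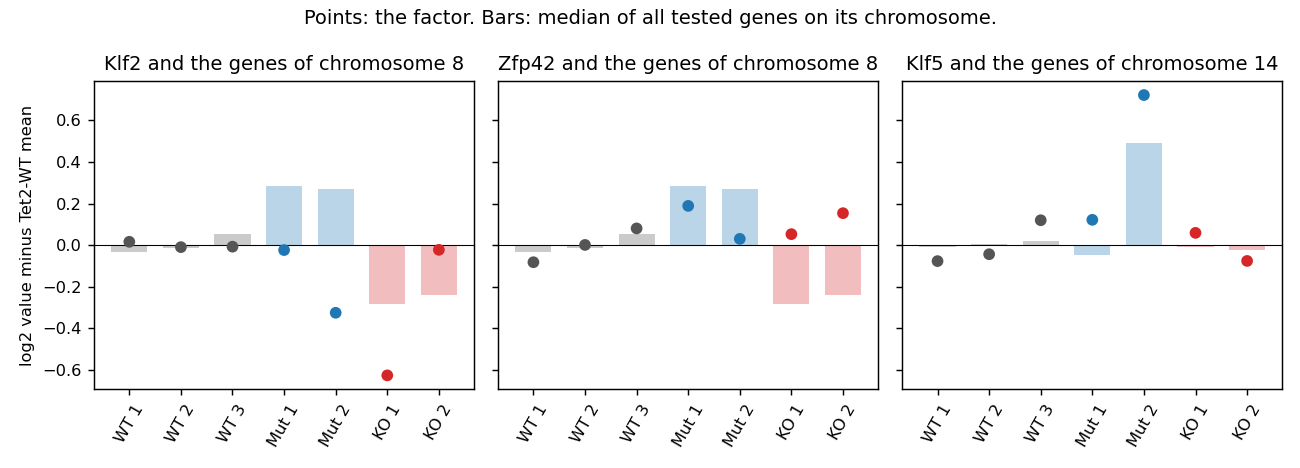
Log2 value minus the Tet2-WT mean (vertical axis) in each of the 7 libraries for Klf2, Zfp42 and Klf5 (points), beside the median of all tested genes on the same chromosome (bars). Chromosome 8 genes were at 0.29 and 0.27 in Tet2-Mut and at -0.28 and -0.24 in Tet2-KO, and chromosome 14 genes were at 0.49 in Tet2-Mut replicate 2.

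Nr5a2, the nuclear receptor also known as Lrh-1, was the other factor with positive differences in both genotypes. Its normalized counts were 2801, 2970 and 3351 in Tet2-WT, 3556 and 3770 in Tet2-Mut, and 3587 and 3022 in Tet2-KO. Both Tet2-Mut clones lay above the Tet2-WT range, and the Tet2-KO clones overlapped it. The log2 fold changes were 0.27 in Tet2-Mut (SE 0.10, interval 0.04 to 0.50, adjusted p = 0.18) and 0.12 in Tet2-KO (interval -0.11 to 0.35, adjusted p = 0.541).

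Counted over the 10 factors, Tet2-KO against Tet2-WT gave 1 called lower and 0 higher, against 5.91% of all genes called (2.91% lower and 3.0% higher). The unadjusted p was under 0.05 for 5 factors and, without the filter, for 4020 of 17342 genes. Of the 10 log2 fold changes, 8 were below 0, against 50.4% of all genes. The factors' median was -0.32, beside 0.00 for all genes. For 6 factors both Tet2-KO clones lay below all Tet2-WT libraries, and for 0 above them, against 22.8% and 21.9% of all genes (44.7% in either direction). Tet2-Mut against Tet2-WT gave 2 called lower and 0 higher, against 3.43% of all genes (1.98% lower, 1.44% higher). An unadjusted p under 0.05 was found for 6 factors and, without the filter, for 3651 of 17342 genes. Here 7 fold changes were below 0 (48.5% of all genes), 6 factors lay wholly below the Tet2-WT libraries (19.8% of all genes) and 2, Klf5 and Nr5a2, wholly above (20.9%), with 40.7% in either direction. The median was -0.16 beside 0.01 for all genes. The 10 genes had been put together with earlier results of these data known, so these counts are descriptions.

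The number of factors called depended on 1 library at a time, as did the number of all genes called. In Tet2-KO the number of factors was 0 without Tet2-WT replicate 1, 2 or 3 by limma (5, 4 and 4 unadjusted). In these fits 0.543%, 0.566% and 0.49% of all genes were called. With only the 2 groups compared it was 4 (Esrrb, Klf4, Prdm14 and Tbx3, all lower), and 12.5% of all genes were called. With Tet2-KO replicate 2 left out, the log2 fold change was -0.63 for Klf2 and -0.53 for Tfcp2l1. With replicate 1 left out these were -0.02 and -0.11. In Tet2-Mut, leaving out Tet2-WT replicate 1 or 2 gave 0 by limma (4 unadjusted each), with 0.0404% and 0.0346% of all genes called. Leaving out Tet2-WT replicate 3 gave 1 (0.71% of all genes), and comparing only the 2 groups gave 4 (5.19%). With a library left out, the log2 fold change ranged from -1.25 to -1.10 for Tbx3 and from -0.42 to -0.32 for Nanog. The counts given below for gene lists with a library left out come from the same fits.

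Against Tet2-Mut, none of the 10 factors passed the test in Tet2-KO. limma, edgeR and DESeq2 each called 0, against 6.19% of all genes by limma (2.64% higher, 3.55% lower). Without the filter 3499 of 17342 genes had an unadjusted p under 0.05, and so did 4 factors. These were Klf5 (log2 fold change -0.43, adjusted p = 0.178), Klf4 (-0.32, interval -0.60 to -0.05, adjusted p = 0.174), Tbx3 (0.30, interval 0.00 to 0.60, adjusted p = 0.242) and Nanog. Klf4 and Klf5 were lower in both Tet2-KO clones than in both Tet2-Mut clones (21.5% of all genes), and Tbx3 and Nanog were higher in both (23.3%, and 44.8% in either direction). With a library left out, the log2 fold change ranged from -0.49 to -0.15 for Klf4 and from -0.73 to -0.13 for Klf5. It ranged from 0.08 to 0.52 for Tbx3 and from -0.36 to -0.03 for Esrrb. Of the 10 log2 fold changes 7 were below 0, against 49.3% of all genes. The intervals left room for differences in either direction for Klf2 (-0.53 to 0.23), Prdm14 (-0.53 to 0.37) and Tfcp2l1 (-0.24 to 0.35). Tet2-KO differed from Tet2-Mut by limma in 458 genes higher and 616 lower, and with chromosome centring in 295 higher and 166 lower. Tet2-Mut against Tet2-WT gave 250 higher and 344 lower, and 111 and 296 with chromosome centring.

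The Tet2-KO clones were not alike in these factors. Tet2-KO replicate 1 was lower than replicate 2 in 8 of the 10, all but Klf5 and Nr5a2, whereas replicate 1 was lower in 48.5% of all genes. The gap exceeded 0.12 on the log2 scale, the median size for 9102 genes with a mean of at least 500, in 9 of the 10. It reached 0.69 for Prdm14, or 1.61-fold, and 0.60 for Klf2. The median of the 10 factors relative to the Tet2-WT mean was -0.52 in Tet2-KO replicate 1 and -0.09 in replicate 2, beside -0.23 and -0.17 in the Tet2-Mut clones. Markers of fibroblasts, the cells of the feeder layer, also differed between the clones. The median of 28 such markers stood 1.30 above Tet2-WT in Tet2-KO replicate 1 and 0.70 in replicate 2. It stood at 0.63 and 0.21 in Tet2-Mut replicates 1 and 2. Tet2-KO replicate 2 had a higher fibroblast median than either Tet2-Mut clone, and the median of its naive factors lay nearer the Tet2-WT mean. The relation between these medians was not tested. The summed normalized count of the 28 markers was 71525 to 75076 in Tet2-WT, 67689 and 79255 in Tet2-Mut, and 86448 and 110731 in Tet2-KO. Most of the Tet2-WT sum was Fn1, with a mean of 46060 in Tet2-WT and 53531 in Tet2-KO. Fn1 itself did not pass by limma in Tet2-KO (adjusted p = 0.327). In Tet2-KO, 9 of the 28 markers passed the test, all higher, beside 3.0% of all genes. In Tet2-Mut 0 passed by limma and edgeR and 2 by DESeq2, 1 in each direction. By limma 8 had an unadjusted p under 0.05 there, beside 3651 of 17342 genes without the filter. The 9 became 1, 2 and 0 (19 unadjusted) with Tet2-WT replicate 1, 2 or 3 left out, 2 and 12 with Tet2-KO replicate 1 or 2 left out, and 18 and 17 with Tet2-Mut replicate 1 or 2 left out. All 28 had reads in every library, and the defining Col1a1 was at 693 to 782 in Tet2-WT and at 2123 and 1444 in Tet2-KO. In Tet2-KO replicate 1, Klf5, Nr5a2 and Zfp42 stood above the Tet2-WT mean and the other 7 of the 10 factors below it. In the same library the core factor Sox2 was at 26550 normalized counts against 31155 to 33407 in Tet2-WT, Pou5f1 at 52412 against 52319 to 58392, and Sall4 at 20075 against 16392 to 17830. The part of fibroblast RNA in the lower values was not tested. In the test, 4 of 19 trophectoderm markers were higher and 2 lower in Tet2-KO, beside 3.0% and 2.91% of all genes. Rhox6 (-0.90, adjusted p = 0.0379) was among the lower ones. In Tet2-Mut 0 were higher and 8 lower, beside 1.44% and 1.98% of all genes. Rhox6 (-2.74, adjusted p = 0.0025) and Hand1 (-2.63, adjusted p = 0.0141) were among these. The 6 in Tet2-KO became 0, 1 and 0 with Tet2-WT replicate 1, 2 or 3 left out (7, 7 and 6 unadjusted by limma) and 2 with Tet2-KO replicate 1 left out, and the 8 in Tet2-Mut became 2, 2 and 4 with the same Tet2-WT libraries left out and 5 with Tet2-Mut replicate 2 left out. Their counts summed to 19123 to 22172 in Tet2-WT, 13393 and 13899 in Tet2-Mut, and 25422 and 30846 in Tet2-KO. Beside 5.91% of all genes called, near the share here, 1 of 16 primitive endoderm markers, the laminin Lamb1, was higher in Tet2-KO (0.47, adjusted p = 0.0178). This became 0 by limma with Tet2-WT replicate 1, 2 or 3 or with Tet2-KO replicate 1 left out (2, 2, 4 and 2 unadjusted), and 2 with either Tet2-Mut clone or Tet2-KO replicate 2 left out. In Tet2-Mut 0 passed by limma and edgeR (1 unadjusted in each) and 1 by DESeq2. They summed to 24253 to 27622, 25177 and 26516, and 29005 and 35488 in the same order.

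Upstream of the factors, the LIF receptor chains and Stat3 did not pass the test. Of 16 genes of the LIF, Wnt and Bmp inputs, 1 was higher in Tet2-KO than in Tet2-WT and 1 lower. The shares of all genes were 3.0% and 2.91%. Id3, a Bmp target, was higher (log2 fold change 0.63, adjusted p = 0.0425) and Socs3 was lower. Socs3, a feedback inhibitor and direct target of Stat3, was at 8672 ± 404 in Tet2-WT (SD, n = 3), 7699 ± 92.2 in Tet2-Mut and 6178 ± 463 in Tet2-KO (n = 2 each). Its log2 fold change in Tet2-KO was -0.49 against Tet2-WT (adjusted p = 0.0101) and -0.32 against Tet2-Mut (adjusted p = 0.0468). Stat3 itself was at -0.04 in Tet2-KO (adjusted p = 0.816), Il6st at 0.11 (adjusted p = 0.356) and Lifr at -0.24 (adjusted p = 0.153). Against Tet2-Mut, the Wnt effector Tcf7 was also higher in Tet2-KO (0.49, adjusted p = 0.0375) and the Bmp effector Smad1 lower (-0.51, adjusted p = 0.0382). Beside these stood 2.64% of all genes called higher and 3.55% called lower. The genes of this list are given without centring on the median of their chromosome. In Tet2-KO against Tet2-Mut that median was -0.52 for chromosome 8 genes and -0.23 for chromosome 14 genes. These 3 calls against Tet2-Mut became 0 by limma with Tet2-WT replicate 1, 2 or 3, Tet2-Mut replicate 2 or Tet2-KO replicate 1 left out (9, 9, 10, 9 and 7 unadjusted), 1 with Tet2-KO replicate 2 left out, and 3 higher and 6 lower with Tet2-Mut replicate 1 left out. In Tet2-KO against Tet2-WT, limma called 0 of the 16 with any 1 Tet2-WT library or Tet2-KO replicate 1 left out (5, 5, 4 and 4 unadjusted), and 2 higher and 2 lower with either Tet2-Mut clone left out. In Tet2-Mut 0 of the 16 passed by limma and edgeR (6 and 4 with an unadjusted p under 0.05), 2 passed by DESeq2, and 5 by limma without Tet2-Mut replicate 1.

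Of 24 other naive markers, 5 were lower in Tet2-KO than in Tet2-WT and 0 higher, beside 2.91% and 3.0% of all genes. By limma 9 had an unadjusted p under 0.05, and the median was -0.16. DESeq2 called 6, all lower. Among them were the adhesion molecule Pecam1 (-0.75, adjusted p = 0.0154), the factor Sox15 (-0.81, adjusted p = 0.0243), the Nodal co-receptor Tdgf1 (-0.37, adjusted p = 0.0231) and alkaline phosphatase Alpl (-0.55, adjusted p = 0.0319). With any 1 Tet2-WT library, or else Tet2-KO replicate 1, left out, limma called 0 of the 24 (7, 7, 9 and 8 unadjusted). Leaving out either Tet2-Mut clone gave 2 higher and 7 lower. In Tet2-Mut 2 were lower, Pecam1 (-0.58) among them, and 1 was higher, Fbxo15 (0.37), beside 1.98% and 1.44% of all genes. By limma 11 had an unadjusted p under 0.05, and the median was 0.01. DESeq2 called 4 higher and 5 lower. These counts became 0 when any 1 Tet2-WT library was left out (10, 10 and 12 unadjusted), and 9 higher and 3 lower when Tet2-Mut replicate 1 was. Against Tet2-Mut, the paired Dppa2 and Dppa4 were lower in Tet2-KO, by 0.61 and 0.42 in log2 terms (adjusted p = 0.0168 and 0.0138). Of 13 core factors, Mycn (0.68), Lin28a (0.73) and Foxd3 (0.74) were higher in Tet2-KO than in Tet2-WT and 0 lower. The shares of all genes were 3.0% and 2.91%. With any 1 Tet2-WT library left out, limma called 1 of the 13. Pou5f1 (log2 fold change 0.00, adjusted p = 0.993) and Sox2 (-0.11, adjusted p = 0.565) did not pass. Mycn was also higher in Tet2-Mut (0.39, adjusted p = 0.0315), a comparison that gave 0 calls among the 13 once Tet2-WT replicate 1, Tet2-WT replicate 2 or Tet2-Mut replicate 2 was left out (2, 3 and 5 unadjusted).

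Of 23 genes listed for the exit from the naive state, 14 were higher in Tet2-KO than in Tet2-WT and 0 lower, against 3.0% and 2.91% of all genes. Not every listed gene need rise on exit. Of the genes called, Foxd3 was also counted among the core factors, and Grhl2 is also counted among the paralogs below. The list, whose median was 0.85, was written with earlier results of these data known. The other 9 did not pass, among them Fgf5 (2.97, adjusted p = 0.0659), Otx2 (1.08, adjusted p = 0.385), Etv4 (-0.69, adjusted p = 0.136) and Tcf15 (-0.49, adjusted p = 0.179). Sox3 (2.47), Sall2 (1.92), the Fgf carrier Fgfbp1 (1.40) and Dnmt3b (1.14) had the smallest p, all at an adjusted p of 0.00618 or less. Leaving out any 1 Tet2-WT library gave 4, leaving out Tet2-KO replicate 1 gave 5, and leaving out either Tet2-Mut clone gave 19 higher and 2 lower. In Tet2-Mut 3 were higher, beside 1.44% of all genes: Dnmt3a (0.60), Fgfbp1 (0.71) and Sox4 (0.88). With any 1 Tet2-WT library left out limma called 0 (7, 7 and 9 unadjusted), while DESeq2 called 7. The count rose to 6 with either Tet2-KO clone left out, and was 4 higher and 3 lower with Tet2-Mut replicate 1 left out. The list's median was 0.92 and 0.84 in Tet2-KO replicates 1 and 2, and that of the 10 naive factors was -0.52 and -0.09. The similar list medians do not mean that the listed genes were alike in the 2 clones. Their summed normalized count was 171757 in Tet2-KO replicate 1 and 140010 in replicate 2, beside 96392 to 102175 in Tet2-WT.

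**Figure D4:**
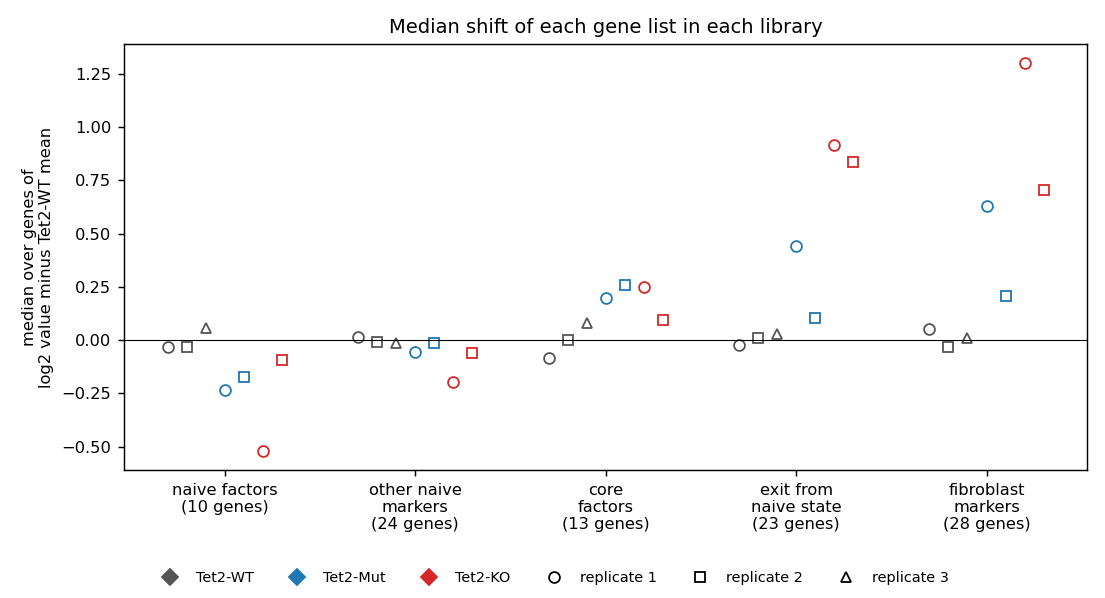
Median over the genes of each list of the log2 value minus the Tet2-WT mean (vertical axis), for each of the 7 libraries. The naive factors were at -0.52 and -0.09 in Tet2-KO replicates 1 and 2, the genes of exit from the naive state at 0.92 and 0.84, and the fibroblast markers at 1.30 and 0.70.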

How the data were processed

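RNA-seq covered 7 libraries. Build mm10, STAR 2.7.3a for alignment, Trim Galore 0.6.5, featureCounts and DESeq2 are named per the submitters' processing notes. Annotation and strandedness: not given in the sources used here. The values the authors deposited are a linear signal, gene counts scaled by a factor per library. All values were whole multiples of 1 step per library (100%, tolerance 0.01 reads), so whole reads were recovered for edgeR 4.0.16 and DESeq2 1.42.0. The main test was limma 3.58.1 (R 4.3.3) on log2(value + 1) for 17338 genes with at least 10 in at least 2 libraries, as 1 model of group means over all 7 libraries. Its prior variance followed the mean, and Benjamini-Hochberg adjusted p under 0.05 was called. Residual degrees of freedom were 4, and the prior added 5.03. Chi-square over degrees of freedom was 7.19 to 13.4 for pairs of Tet2-WT libraries and 34.2 and 45.1 for the clones, so the shared spread can understate that between clones. In simulated counts, 76%, 74% and 66% of 2-fold changes were recovered for Tet2-KO against Tet2-WT, Tet2-Mut against Tet2-WT and Tet2-KO against Tet2-Mut (17308, 17296 and 17302 genes). For 1.5-fold changes these were 38%, 38% and 48%. False calls made up 7.65%, 6.59% and 7.27% of the calls in these simulations, above the threshold of 0.05.

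Symbols were matched to RefSeq (GRCm38.p6) for 16093 genes, 92.8%. Promoter sequences are RefSeq's, for 7 of the 10 factors. Replicate numbers are used here only to name libraries, except in the replicate block. Factors and lists were chosen with earlier results of these data known. Named genes were the 10 factors, Tet2, per list and comparison up to 4 called genes with the smallest p, and for each called factor the 3 genes with the closest profile. Sox17, Gata4, Fn1, Sall4, Pou5f1, Sox2, Stat3, Il6st, Lifr, Fgf5, Otx2, Etv4, Tcf15, Tbx3os1, Zfp42-ps1 and, in Tet2-KO, Rhox6 were chosen after their values were seen. Of the called genes, 1 is not reported here.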

Additional observations from a re-analysis of the deposited data

How the results depend on the processing

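Across 18 settings, the 3 calls (Tbx3 in both genotypes, Nanog in Tet2-Mut) kept their direction. Tbx3 and Nanog passed under both other pseudocounts, no filter, upper quartile scaling, quantile normalization, 2 groups only, DESeq2 and chromosome centring. With a prior variance that did not follow the mean, all 3 lost their call (adjusted p = 0.086, 0.105 and 0.198). The factors had 566 to 36242 normalized counts per library, so the number of clones limits their precision more than counting error.

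The number of factors called in Tet2-KO against Tet2-WT was 1. It was 3 with quantile normalization, 4 with only the 2 groups compared or with DESeq2, 0 with the replicate block or without the trend (limma, with 5 and 4 at an unadjusted p under 0.05), and 0 to 6 with a library left out. In Tet2-Mut it was 2, and became 4 with only the 2 groups compared, 5 with DESeq2, 1 with edgeR, 0 with the replicate block or without the trend (6 and 3 unadjusted), and 0 to 4 with a library left out. In Tet2-KO against Tet2-Mut it was 0, and 0 to 2 with a library left out.

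All genes called numbered 1025, 594 and 1074 in the 3 comparisons in that order. With only the 2 groups compared they numbered 2159, 900 and 0 (limma, with 2357 unadjusted in the last), with DESeq2 1992, 1555 and 1808, and without the trend 19, 0 (limma, 3018 unadjusted) and 10. With a library left out they ranged from 85 to 2158, 6 to 2198 and 530 to 2679. The replicate block gave 15, 7 and 467. Same-numbered libraries showed little shared deviation from their group means (correlations across genes of -0.07 to 0.09). In a group of 2 clones the 2 deviations mirror each other, so this check cannot exclude a shared batch. Under the block the adjusted p by limma was 0.0757 and 0.0795 for Tbx3 and 0.179 for Nanog in Tet2-Mut.

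Directions that turned belonged to factors without a call in the main test. In Tet2-KO against Tet2-WT, Klf5 was at 0.052 with the replicate block, 0.017 with chromosome centring and -0.076 to 0.059 with a library left out, and Nr5a2 was at -0.0048 to 0.24 with a library left out. In Tet2-Mut against Tet2-WT, Klf4 was at -0.26 to 0.078 with a library left out, and Zfp42 was at -0.15 with chromosome centring. In Tet2-KO against Tet2-Mut, leaving out a library gave -0.45 to 0.15 for Klf2, -0.15 to 0.27 for Tfcp2l1, -0.43 to 0.26 for Prdm14 and -0.085 to 0.073 for Zfp42. Chromosome centring gave 0.37 for Klf2 and 0.52 for Zfp42, and Zfp42 was at 0.0015 with upper quartile scaling and 0.035 with quantile normalization. The cause was not tested.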

Other observations

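Of 40 tested paralogs of the naive factors, 5 were higher in Tet2-KO than in Tet2-WT and 0 lower, beside 3.0% and 2.91% of all genes. The T-box gene T, which specifies mesoderm, went from 17.9 ± 10.8 normalized counts (SD, n = 3) to 427 ± 132 (n = 2), a log2 fold change of 4.62 (adjusted p = 0.00522). Tbx3, of the same family, fell. Among relatives of the Klf genes, the Wnt target Sp5 was higher by 2.79 (adjusted p = 0.00979), Klf6 by 0.63 (adjusted p = 0.0206) and Klf7 by 0.72 (adjusted p = 0.0382, chosen after its value was seen). Grhl2, a grainyhead-family relative of Tfcp2l1, was higher by 0.63 (adjusted p = 0.0289). In Tet2-Mut, 1 paralog was higher and 1 lower, beside 1.44% and 1.98% of all genes, so the share is near that of all genes: Klf12 rose by 0.73 (adjusted p = 0.0279) and the T-box gene Eomes fell by 0.82 (adjusted p = 0.035). Against Tet2-Mut, Klf12 was lower in Tet2-KO, at a log2 fold change of -0.90 (adjusted p = 0.00846), and Eomes was higher, at 1.13 (adjusted p = 0.00798). The paralogs are given without centring on the median of their chromosome. In Tet2-Mut against Tet2-WT that median was 0.22 for chromosome 14 genes and 0.27 for chromosome 8 genes. In Tet2-KO against Tet2-Mut it was -0.23 and -0.52 in the same order. The 5 paralogs called in Tet2-KO became 1, 1 and 2 with Tet2-WT replicate 1, 2 or 3 left out and 1 with Tet2-KO replicate 1 left out. With either Tet2-Mut clone left out they became 6 higher and 3 lower. In Tet2-Mut limma called 0 paralogs with any 1 Tet2-WT library or Tet2-Mut replicate 2 left out (5, 3, 10 and 3 unadjusted), and 2 higher and 5 lower with Tet2-Mut replicate 1 left out.

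The genes whose profile over the 7 libraries was closest to that of Tbx3, among 13513 genes with a mean of at least 50, were Slc11a1, Kif26a and Kcnab2. Their root mean square distances were 0.13 each on the log2 scale, against a spread of 0.53 for Tbx3 itself. The nearest of the other 9 naive factors was Prdm14, at 0.26. For Nanog the closest were Rab18, Triobp and Zfp710, at distances of 0.04 to 0.05 against a spread of 0.17.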
